A study of Mus musculus with 40 samples.

Results

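The genes described here code for the eIF4 translation initiation factors and the cytoplasmic poly(A)-binding protein in mouse embryonic fibroblasts that lack GADD34. They are Eif4a1, Eif4a2, Eif4a3, Eif4b, Eif4e, Eif4g1, Eif4g2, Eif4ebp1, Eif4ebp2 and Pabpc1, 10 genes of the 22417 in the deposited table. The members were chosen by gene symbol, with footprint results of these same libraries already known. Their footprint values with thapsigargin, and the footprint values of Eif4a2 against Eif4a1, are therefore given as a description without a test. Tests are given for mRNA, for the ER fraction against the cytosol fraction in untreated cells, and for footprints against mRNA in untreated cells. The tests that use footprints of untreated cells draw on these same libraries, so their p-values are a description only. The p-values for the ratio of Eif4a2 to Eif4a1 in mRNA are also a description only.

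Eukaryotic ribosomes are recruited to most mRNAs through the cap at the 5′ end. Eif4e binds the cap, the scaffold Eif4g1 binds Eif4e and the RNA helicases Eif4a1 or Eif4a2, and together they form the complex eIF4F. Eif4g1 also binds Pabpc1 on the poly(A) tail, which brings both ends of the mRNA together. The repressors Eif4ebp1 and Eif4ebp2 compete with Eif4g1 for Eif4e and are released when the kinase mTORC1 phosphorylates them. Thapsigargin blocks the calcium pump of the endoplasmic reticulum (ER) and so causes ER stress, which acts on another initiation factor, eIF2, through phosphorylation of its alpha subunit. GADD34 directs the removal of that phosphate.

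All cells were GADD34-/- embryonic fibroblasts, either untreated or given 1 uM thapsigargin for 0.5, 1, 2 or 4 h. Wild-type cells are not analysed here, so no value below compares genotypes. Every sample was exposed to 180 uM cycloheximide, a blocker of elongation, for 30 s. Digitonin then released the cytosol fraction, and dodecyl maltoside extracted the remainder as the ER fraction. In each fraction, libraries were made of ribosome footprints left by micrococcal nuclease and of mRNA after ribosomal RNA had been removed. The 20 groups of assay, fraction and time had 2 samples each, except that ER footprints at 0.5 h had values for 1, which leaves 39 libraries. The labels do not say whether the replicates were separate cultures or whether the cells were 1 clone, so the p-values measure the spread between these samples only.

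Values are RPKM, that is, reads scaled to the length of the gene and the size of the library, so levels of different genes can be compared per length. The deposited values carry a weight per fraction: ER libraries held 46.7% of the scale of their ER and cytosol pair in untreated footprints of replicate 1, 32.8% at 0.5 h and 45.9% at 4 h. A lower weight lowers every gene of an ER library alike. Changes of footprints and of mRNA were fitted on the deposited scale and so include this weight. A change is therefore to be read beside that of the median gene. Recovered reads ran from 56868 to 9606894 in footprint libraries and from 1502 to 315681 in mRNA libraries. Genes marked TRUE in an unnamed column of the deposited table held 29.7% and 32.96% of the RPKM in untreated ER footprints and 5.96% and 4.55% in untreated cytosol footprints. The 10 genes are all marked FALSE. Of 10 fibroblast markers, 9 were listed in footprints, with a summed level of 3832 RPKM or more in every library, while macrophage, epithelial and endothelial markers summed to at most 1.73, 0.599 and 0.318 RPKM.

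A few libraries stood apart from the other replicate. In the library labelled cytosol footprints at 0.5 h, replicate 2, TRUE genes held 18.7% of the RPKM, against 10.2% in replicate 1. In the library labelled cytosol footprints at 1 h, replicate 1, Pabpc1 was at 346 RPKM, above both untreated libraries, against 42.4 RPKM in replicate 2. In ER mRNA at 0.5 h, replicate 2 had 1502 reads and listed 3 of the 10 genes. Changes that rest on these libraries are given below with and without them.

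The helicase paralogs Eif4a1 (NM_144958) and Eif4a2 (NM_001123038) are compared below in their share of mRNA and footprints, so the sequence before each start site is shown. The table of promoters, from RefSeq on GRCm38.p6, held 7 of the 10 genes. Each sequence below is the 250 bases before the annotated start, 5′ to 3′ on the strand of the gene, for Eif4a1 on the minus strand at chr11:69672424-69672673 and for Eif4a2 on the plus strand at chr16:23107218-23107467. Capitals mark matches to the 5 motifs searched on both strands, which were the CCAAT box of those letters, the core TGACGT of the cyclic AMP element, the core TGATGNAA of the C/EBP-ATF element, the GC box GGGCGG, and the ER stress element, which begins with a CCAAT box and so overlaps it.
Eif4a1: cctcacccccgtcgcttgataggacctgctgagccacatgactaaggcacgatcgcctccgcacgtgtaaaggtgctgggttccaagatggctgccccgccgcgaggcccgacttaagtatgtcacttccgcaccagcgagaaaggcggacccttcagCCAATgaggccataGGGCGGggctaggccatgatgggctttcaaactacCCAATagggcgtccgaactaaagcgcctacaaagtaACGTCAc
Eif4a2: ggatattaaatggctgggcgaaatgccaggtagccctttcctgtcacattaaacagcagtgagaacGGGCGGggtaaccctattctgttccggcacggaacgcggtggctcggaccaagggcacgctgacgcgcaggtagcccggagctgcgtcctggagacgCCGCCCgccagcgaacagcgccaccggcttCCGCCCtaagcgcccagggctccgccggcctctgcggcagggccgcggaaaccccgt
The window of Eif4a1 held CCAAT 2 times, GGGCGG 1 time and TGACGT 1 time on the other strand. The window of Eif4a2 held GGGCGG 3 times and none of the other 4 motifs. Of 32851 promoter windows of the same length, 33.8% held CCAAT, 32.7% GGGCGG, 6.47% TGACGT, 3.45% TGATGNAA and 0.113% the ER stress element. The windows were 58.8% G and C for Eif4a1 and 66.4% for Eif4a2, against a median of 52.4% over all windows. A match is a run of letters in the window and says nothing of binding.

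In untreated cells, Eif4a1 had the highest footprint level of the 10 genes in both fractions and Eif4ebp2 the lowest. In the cytosol, Eif4a1 stood at 1070.45 and 1227 RPKM, followed by the cap-binding protein Eif4e at 313 and 348 RPKM. Pabpc1, at 183 and 162 RPKM, and Eif4b, the cofactor that stimulates eIF4A helicases, at 162 and 175 RPKM, overlapped each other. Eif4a3, a related helicase that belongs to the exon junction complex, was at 111 and 110.1 RPKM, just above Eif4ebp1 at 98.2 and 95.3. Eif4g2, a relative of Eif4g1 that lacks the binding site for Eif4e, was at 77.9 and 79.8 RPKM. Eif4a2 was at 120.4 and 49.8 RPKM, so its 2 libraries spanned the levels of Eif4a3, Eif4ebp1 and Eif4g2. Eif4g1, at 33.3 and 24.1 RPKM, and Eif4ebp2, at 26.6 and 12.2 RPKM, were the lowest and overlapped.

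The next comparison asked which of these genes had more footprints in one fraction than in the other before stress. Footprints of Eif4a1, Eif4a3 and Eif4b were lower in the ER fraction than in the cytosol on the deposited scale, and no member was called higher. ER footprints of Eif4a1 were 411 and 450.0 RPKM, a log2 difference of -1.41 ± 0.44 (SE, n = 2 per fraction, limma adjusted p = 0.0411). For Eif4b they were 68.3 and 70.3 RPKM, a difference of -1.27 ± 0.36 (limma adjusted p = 0.0291), and for Eif4a3 54.2 and 22.2 RPKM, a difference of -1.64 ± 0.46 (limma adjusted p = 0.027). In each of these genes both ER libraries lay below both cytosol libraries. The share of all genes whose untreated fractions did not overlap was not computed, so this is a description only. The 3 calls among 10 members compare with 14.6% of 5786 genes called. The median gene itself was at -0.79, and the members' median was -0.95.

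The scaffold Eif4g1 lay on the other side. Its ER footprints were 77.4 and 62.0 RPKM, above both cytosol libraries, with a log2 difference of 1.26 ± 0.47 that missed the threshold (limma adjusted p = 0.0765). With each library centred on its median gene, Eif4g1 passed at 1.49 (limma adjusted p = 0.0473) and no other member did. The 456 higher and 387 lower genes on the deposited scale became 480 and 120 with that centring and 485 and 33 with every library scaled to the same sum. Without the fraction weight, 0 members were called, against 469 higher and 116 lower genes. Pabpc1 had 153 and 159.5 RPKM in the ER and a difference of -0.14 ± 0.82. With 1 untreated library left out, the calls for Eif4a1 and Eif4b were each lost in all 4 fits, at -1.51 to -1.31 and -1.32 to -1.21. That for Eif4a3 was lost in 3 of them, at -1.01 without ER replicate 2, and it held at -2.27 without ER replicate 1.

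In mRNA of untreated cells, 0 of 7 members tested differed between the fractions (limma, 2 at an unadjusted p under 0.05), and 0% of 1727 genes were called, with 72 at an unadjusted p under 0.05. The 2 with the lowest unadjusted p were Eif4a1 at -2.37 ± 0.99 and Eif4g2 at -2.29 ± 1.08 on the log2 scale (limma adjusted p = 0.833 for both). With the replicate number as a block, 30 genes were called (1.74%), 26 higher in the ER and 4 lower, and still no member. The replicates differed strongly here, as ER mRNA of Eif4a1 was 68.6 RPKM in replicate 1 and 17.4 RPKM, from 3 reads, in replicate 2.

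**Figure D1:**
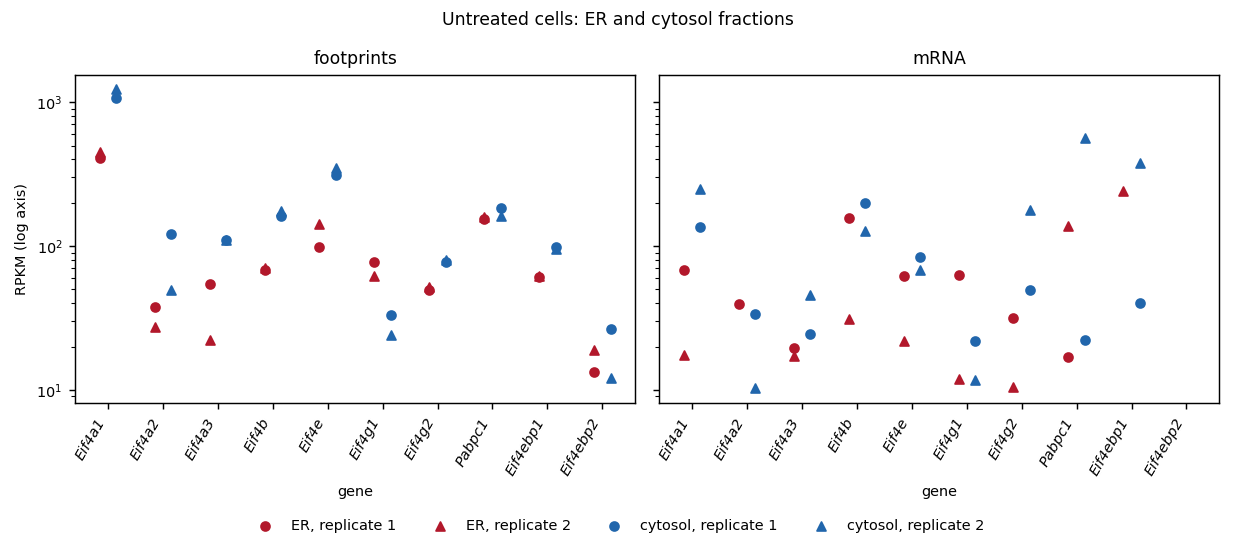
Levels of the 10 genes in untreated cells, in RPKM on a log axis, with footprints on the left and mRNA on the right. Each point is a library (red for ER, blue for cytosol; circles for replicate 1, triangles for replicate 2). Footprint replicates lie close for most genes, Eif4g1 is higher in the ER, and mRNA replicates of Pabpc1 are far apart in both fractions.

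With thapsigargin, footprints of Eif4a2 were higher than in untreated cells at every time in both fractions, and those of Pabpc1 were lower in the ER at every time. Eif4g1 footprints were lower in the ER, whereas Eif4e, Eif4a3, Eif4g2 and Eif4ebp1 moved less. In ER footprints 1, 3, 4 and 4 of the 9, 9, 9 and 8 members tested were called at 0.5, 1, 2 and 4 h, against 0.49%, 10.6%, 17.5% and 27.6% of all genes. In the cytosol 0, 0, 1 and 1 of 10, 9, 9 and 9 were called, against 3.45%, 1.43%, 9.45% and 7.91%. Nothing is read from these counts, since the genes were chosen with them known. The median gene was at -0.19, -0.03, 0.19 and 0.44 in the ER and at -0.03, -0.15, -0.14 and -0.12 in the cytosol, on the log2(RPKM + 1) scale that all changes below use. The times in one fraction share their untreated libraries. With so few libraries, groups of many genes did not overlap: thapsigargin libraries lay all above or all below both untreated ones in 79.4% (1 thapsigargin library), 60.3%, 62.3% and 65.4% of genes in ER footprints, while the cytosol had 50.7%, 48.4%, 61.2% and 57%. Where groups of members do not overlap below, that is a description read against these shares. In such bulk samples, fewer cells that express a gene and less of its RNA per cell cannot be told apart.

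Of the 2 eIF4A helicases, Eif4a2 had the lower level in every footprint library, though not in every mRNA library. In ER footprints Eif4a2 was at 37.6 and 27.3 RPKM in untreated cells and at 96.8 RPKM in the 1 library at 0.5 h. It then stood at 227 and 255 RPKM at 1 h, 368 and 463 RPKM at 2 h, and 459.5 and 496 RPKM at 4 h. Every thapsigargin library lay above both untreated libraries. The log2 changes were 1.56 ± 0.50, 2.87 ± 0.40, 3.65 ± 0.40 and 3.86 ± 0.40 (SE), at the 97.3, 99.0, 99.1 and 99.1 percentile of all genes.

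In cytosol footprints Eif4a2 was at 120.4 and 49.8 RPKM in untreated cells, 260.5 and 227 RPKM at 0.5 h, and 325 and 345 RPKM at 1 h. It reached 599 and 604 RPKM at 2 h and 591 and 604 RPKM at 4 h. Again no thapsigargin library overlapped the untreated ones, and the values at 2 h and 4 h were alike. The log2 changes were 1.64 ± 0.47, 2.10 ± 0.47, 2.94 ± 0.47 and 2.93 ± 0.47. Without untreated replicate 2, which had the lower value, they were 1.01, 1.47, 2.31 and 2.30.

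Eif4a1, the helicase with the higher footprint level, differed less from untreated cells. Its ER footprints were 411 and 450.0 RPKM in untreated cells, 591 RPKM at 0.5 h, 818 and 1277 RPKM at 1 h, 797 and 1458 RPKM at 2 h, and 701 and 990.5 RPKM at 4 h. All 7 thapsigargin libraries were above both untreated ones, and replicate 2 was above replicate 1 at each time with both. The log2 changes were 0.46 ± 0.52, 1.25 ± 0.42, 1.32 ± 0.42 and 0.95 ± 0.42. In cytosol footprints Eif4a1 was at 1070.45 and 1227 RPKM in untreated cells, 2241 and 2127 RPKM at 0.5 h, 1289.9 and 2272 RPKM at 1 h, 1661 and 1797 RPKM at 2 h, and 1109.8 and 1428 RPKM at 4 h. The 4 h libraries there overlapped the untreated ones, with a change of 0.14 ± 0.47.

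Eif4a3 was between 46.3 and 107 RPKM in the ER with thapsigargin and between 73.9 and 140.4 RPKM in the cytosol. Its log2 changes were 0.64 to 1.23 in the ER and -0.47 to 0.09 in the cytosol. The 2 untreated ER libraries, at 54.2 and 22.2 RPKM, spread more than those of Eif4b. Leaving out 1 of them at a time gave ER changes of Eif4a3 from 0.17 to 1.42 at 0.5 h, 0.15 to 1.40 at 1 h, 0.61 to 1.86 at 2 h and 0.0121 to 1.26 at 4 h, so that their size rests on which untreated library is used. Footprints of Eif4b in the ER stood at 68.3 and 70.3 RPKM untreated, 59.9 RPKM at 0.5 h, 104 and 111 RPKM at 1 h, 140.3 and 141 RPKM at 2 h, and 154 and 197 RPKM at 4 h. Its libraries from 1 h on lay above both untreated ones, with changes of 0.62 ± 0.40, 1.01 ± 0.40 and 1.32 ± 0.40. In the cytosol Eif4b changed by 0.16 to 0.26 at the 4 times, and those values turned negative with every library scaled to the same sum.

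Among the cap-binding protein and its repressors, Eif4e stood between 95.3 and 246 RPKM in the ER with thapsigargin, against 99.0 and 143 RPKM in untreated cells. Its change in the ER was -0.18, -0.05, 0.22 and 0.93 at the 4 times, and both libraries at 4 h were above the untreated ones. In the cytosol it ranged from 262 to 679 RPKM and replicate 2 was above replicate 1 at 1, 2 and 4 h. Eif4ebp1 was at 61.0 and 61.4 RPKM in untreated ER footprints and between 50.6 and 118 RPKM with thapsigargin, from 4 to 24 reads. In the cytosol it ranged from 49.5 to 154 RPKM with thapsigargin, against 98.2 and 95.3 RPKM. Eif4ebp2 was listed in 7 of the 19 footprint libraries, at 6.86 to 30.0 RPKM, and in no ER library with thapsigargin. Footprint libraries list a gene from 4 reads on, so a blank is a count under 4 and not an absence.

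The scaffold Eif4g1 had 77.4 and 62.0 RPKM in untreated ER footprints and 19.5 RPKM at 0.5 h. It was at 15.8 and 19.7 RPKM at 1 h, 14.3 and 18.5 RPKM at 2 h, and 25.7 and 26.1 RPKM at 4 h. None of these 7 libraries reached the untreated ones, and the changes were -1.77 ± 0.51, -1.91 ± 0.42, -2.03 ± 0.42 and -1.39 ± 0.42. In cytosol footprints, where Eif4g1 was lower to begin with, it was at 33.3 and 24.1 RPKM untreated, 22.1 and 27.7 RPKM at 0.5 h, 45.7 and 22.5 RPKM at 1 h, 13.1 and 16.9 RPKM at 2 h, and 22.3 and 10.8 RPKM at 4 h. The groups overlapped at 0.5 and 1 h and not at 2 and 4 h, where the changes were -0.89 ± 0.53 and -0.82 ± 0.53. Its relative Eif4g2 ranged from 28.4 to 69.3 RPKM in the ER with thapsigargin and changed by -0.68, -0.55, -0.28 and 0.23.

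Pabpc1, the cytoplasmic poly(A)-binding protein, belongs to the mRNAs with a terminal oligopyrimidine tract (TOP mRNAs), whose translation follows mTORC1. In untreated ER footprints it was at 153 and 159.5 RPKM. With thapsigargin it was at 11.99 RPKM at 0.5 h, 8.15 and 20.2 RPKM at 1 h, 20.97 and 14.98 RPKM at 2 h, and 37.9 and 50.5 RPKM at 4 h. All 7 libraries lay below the untreated ones, and those at 4 h were above all earlier thapsigargin libraries. The log2 changes were -3.60 ± 0.59, -3.50 ± 0.48, -3.07 ± 0.48 and -1.81 ± 0.48, from 7 to 27 reads per thapsigargin library.

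In cytosol footprints Pabpc1 was at 183 and 162 RPKM untreated, 18.8 and 79.6 RPKM at 0.5 h, 346 and 42.4 RPKM at 1 h, 23.4 and 29.9 RPKM at 2 h, and 108 and 36.7 RPKM at 4 h. At 0.5, 2 and 4 h both libraries lay below the untreated ones, and at 1 h 1 of 2 did. The changes were -2.11 ± 0.92, -0.50 ± 0.92, -2.66 ± 0.92 and -1.43 ± 0.92. Without the libraries that stood apart, 0.5 h replicate 2 and 1 h replicate 1, the first 2 were -3.12 ± 0.70 and -2.00 ± 0.70. With the other replicate left out instead, they were -1.10 at 0.5 h and 1.005 at 1 h, so the direction at 1 h rests on which library is used. The 1 h library was set apart by its Pabpc1 level itself. Leaving it out was therefore bound to lower the Pabpc1 change at 1 h. At 4 h the change was -2.20 without replicate 1 and -0.67 without replicate 2. Whether the higher share of TRUE genes in the 0.5 h library bears on its Pabpc1 level was not tested.

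The same 2 cytosol libraries also carried changes of other members. Without both, the changes at 0.5 h went from -0.29 to -1.28 for Eif4ebp2, from 0.22 to -0.21 for Eif4ebp1 and from 0.09 to 0.34 for Eif4a3. At 1 h they went from 0.21 to 0.75 for Eif4e, from 0.58 to 0.99 for Eif4a1, from 0.18 to -0.32 for Eif4g1 and from -0.08 to -0.52 for Eif4ebp1. Those of Eif4a2 moved little, to 1.74 at 0.5 h and 2.14 at 1 h.

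**Figure D2:**
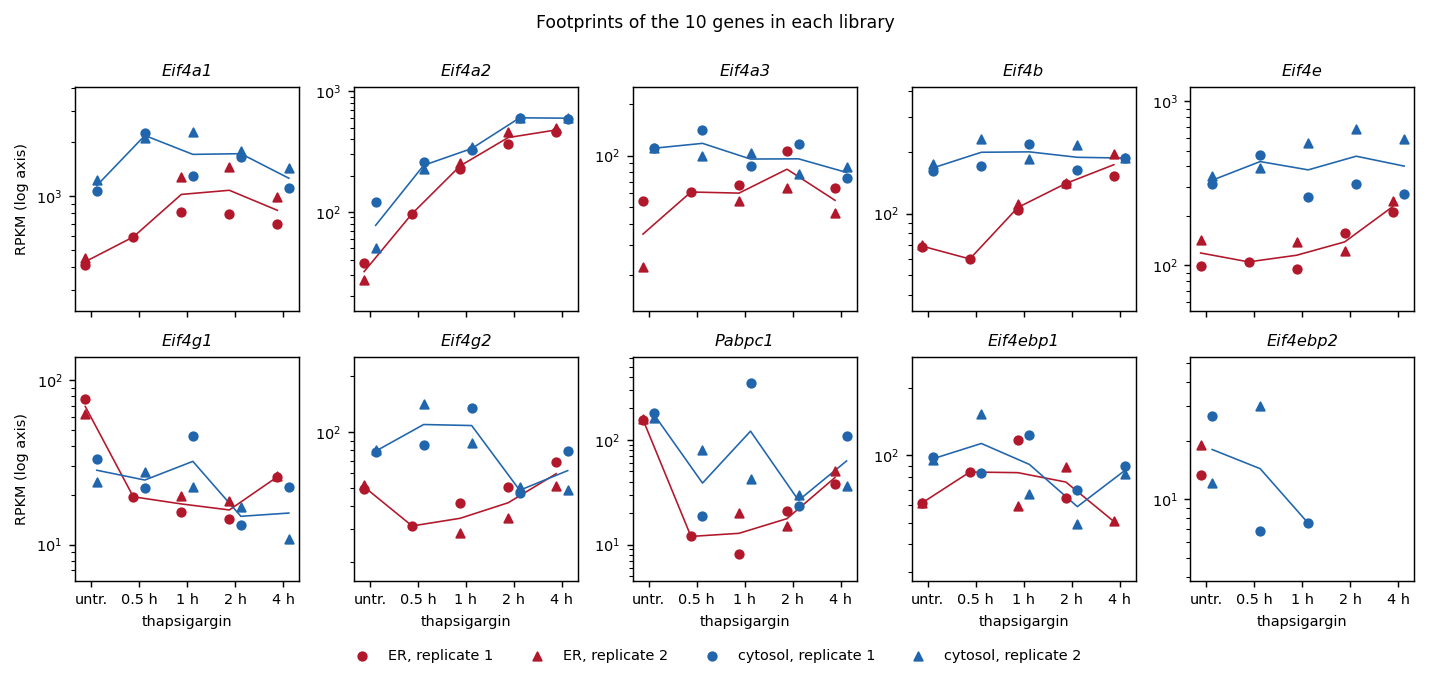
Footprints of the 10 genes in each of the 19 footprint libraries, in RPKM on a log axis, by time of thapsigargin. Each point is a library (red for ER, blue for cytosol; circles for replicate 1, triangles for replicate 2), and lines join geometric means of listed libraries. Eif4a2 is higher with thapsigargin in both fractions, from 27.3 to 496 RPKM in the ER, and Pabpc1 lies between 8.15 and 50.5 RPKM in the ER with thapsigargin.

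**Figure D3:**
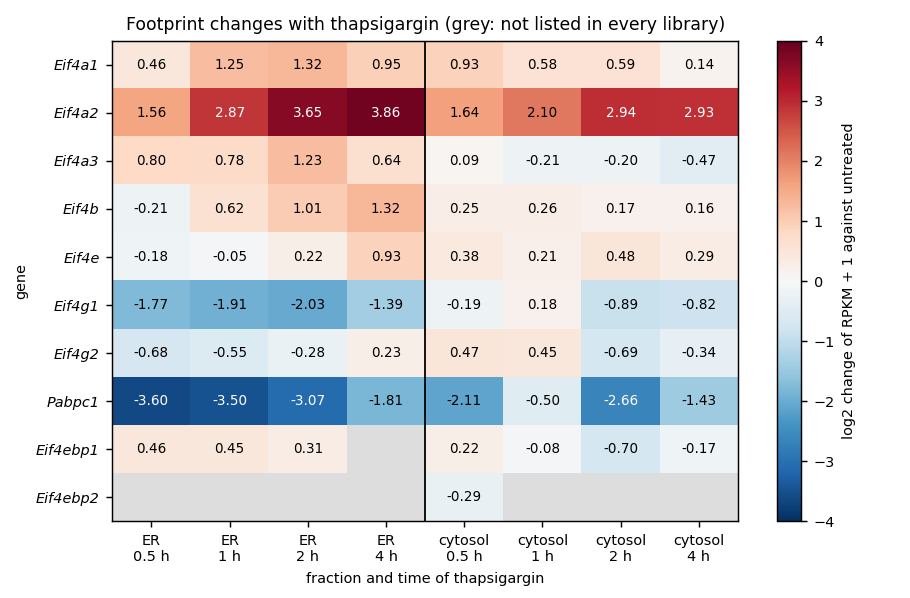
Fitted log2 changes of footprints (RPKM + 1) against untreated cells, with a row per gene and a column per fraction and time. Red is higher and blue lower than untreated, and grey cells could not be fitted because a library did not list the gene. Eif4a2 is red in all 8 columns and Pabpc1 blue in all 8, at 3.86 and -1.81 in the ER at 4 h.

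The genes with footprints most like those of Eif4a2 across the 19 libraries, by Pearson r of log2 values among 1918 genes listed in all of them, were Gadd45a (r = 0.971), Ifrd1 (0.968), Hist1h3f (0.958), Clk1 (0.954) and Sepw1 (0.953). Among those most like Pabpc1 were Rpl8 (0.920), Eef2 (0.915), Ybx1 (0.902) and Tkt (0.893). Among the members, Eif4g1 had 0.732 with Pabpc1 and -0.691 with Eif4a2, and Eif4a1 had 0.594 with Eif4a2. The libraries of one group and of one fraction share treatment and scale, so these values describe the 19 libraries and carry no test.

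In mRNA, no member passed the test of a change with thapsigargin in either fraction without a replicate block. In the ER 0 of 22 values of members and times passed (limma, 0 at an unadjusted p under 0.05), and 0%, 0%, 0% and 0% of 418, 2014, 1690 and 1385 genes were called at 0.5, 1, 2 and 4 h, with 42, 18, 8 and 8 genes at an unadjusted p under 0.05. In the cytosol 0 of 32 values passed (0 unadjusted), and 0%, 0%, 0% and 0.0459% of 2136, 1923, 2322 and 2177 genes were called, with 64, 113, 117 and 289 at an unadjusted p under 0.05. Standard errors of members were 0.89 to 1.49 on the log2 scale. The replicate numbers paired the mRNA libraries, and with the replicate as a block the shares of genes called at the 4 times became 23.7%, 0.0497%, 0.0592% and 0.0722% for ER mRNA. The share at 0.5 h rests on the library of 1502 reads. Without it 0 of 1955 genes were called, with or without the block, and the median gene was at 0.16 without the block, against 1.12 over the 418 genes tested with it. Changes of members in ER mRNA at 0.5 h went without that library from 1.28 to 0.76 for Eif4b, from 0.58 to 0.41 for Eif4g1 and from 0.20 to -0.85 for Pabpc1. For cytosol mRNA they became 0.702%, 4.32%, 2.07% and 24.6%.

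In that blocked fit, 3 of 7 members were called lower in cytosol mRNA at 4 h, when 24.6% of all genes were called and the median gene was at -0.91. The 10 highest genes of a library held 65.8% and 52.5% of the RPKM in untreated cytosol mRNA. At 4 h they held 74.5% in both replicates. Whether this bears on the changes was not tested. Eif4a1 was at -1.97 on the log2 scale (limma adjusted p = 0.00814), with 136 and 248 RPKM untreated and 57.9 and 36.6 RPKM at 4 h. Eif4g2 was at -1.72 (limma adjusted p = 0.0219) and Eif4b at -1.33 (limma adjusted p = 0.0475). The groups of Eif4a1 and Eif4b did not overlap, and for Eif4g2 the untreated replicate 1 at 49.2 RPKM lay below replicate 2 at 4 h, at 55.8 RPKM. The share of all genes whose mRNA groups did not overlap was not computed.

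Eif4a2 mRNA in the cytosol was at 33.6 and 10.3 RPKM untreated, 71.1 and 18.6 RPKM at 0.5 h, 46.9 and 15.2 RPKM at 1 h, 93.3 and 35.1 RPKM at 2 h, and 50.2 and 21.9 RPKM at 4 h. In each replicate the 4 thapsigargin libraries were above the untreated library, while the 2 replicates overlapped. In the fit without a block, whose errors include the gap between replicates, the changes were 0.93 ± 1.02, 0.50 ± 1.02, 1.56 ± 1.02 and 0.79 ± 1.02 (limma adjusted p = 0.999, 0.899, 0.949 and 0.696). These lay at the 95.8, 92.9, 98.4 and 95.2 percentile of genes tested. In ER mRNA of replicate 1 it was at 39.7, 74.3, 102, 135 and 204 RPKM in order of time, from 16 to 74 reads. Replicate 2 did not list it in untreated cells, so no fit was possible there.

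Pabpc1 mRNA differed more between replicates than between times. In the cytosol, replicate 1 ranged from 14.3 to 30.5 RPKM and replicate 2 from 167 to 562 RPKM, so that replicate 2 was above replicate 1 by 3.47 to 4.66 on the log2 scale at the 5 times. In the ER the ranges were 16.95 to 29.6 RPKM and 118 to 314 RPKM. The median gap of Pabpc1 was at the 99.7 percentile of genes in the cytosol and the 99.3 in the ER. Eif4ebp1, with a median gap of 2.86, and Eif4g2, with 2.04, were also higher in replicate 2 of the cytosol, and Eif4a2, with -1.63, was lower. In the fit without a block, Pabpc1 changes with thapsigargin were 0.08 to 0.89 in ER mRNA and -1.18 to -0.15 in cytosol mRNA. All were within 1 standard error of that fit, which includes the gap between replicates, so this does not show an absence of change. In order of time, cytosol replicate 1 was at 22.3, 24.6, 14.5, 30.5 and 14.3 RPKM. Replicate 2 was at 562, 309, 326, 339 and 167 RPKM.

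No member passed the test of a difference between the fractions in its mRNA change, with 0 of 20 values called (limma, 0 at an unadjusted p under 0.05). Of all genes, 0%, 0%, 0% and 0% were called at 0.5, 1, 2 and 4 h, with 37, 64, 30 and 69 at an unadjusted p under 0.05. With the replicate block the shares were 0.885%, 0.0774%, 0.558% and 0.692%, with 0 members. Beyond these counts the depth limits what can be seen, since members had 1 to 237 reads in a mRNA library.

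**Figure D4:**
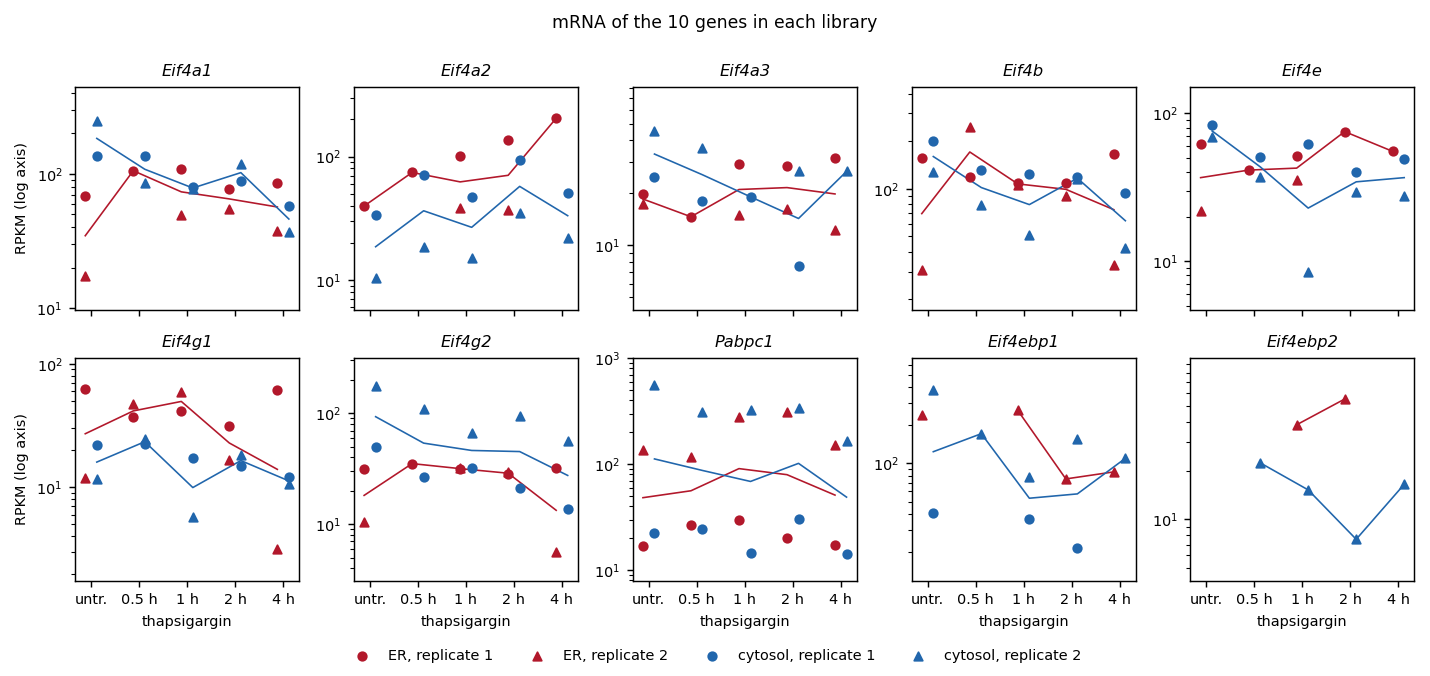
mRNA of the 10 genes in each of the 20 mRNA libraries, in RPKM on a log axis, by time of thapsigargin. Colours, symbols and lines are as for footprints: red for ER, blue for cytosol, circles for replicate 1, triangles for replicate 2, and lines through geometric means of listed libraries. Pabpc1 falls in separate bands for the replicates, and Eif4a2 in replicate 1 of the ER goes from 39.7 to 204 RPKM.

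The share of Eif4a2 in the summed RPKM of Eif4a1 and Eif4a2 shows how the pair was made up, free of the scale of a library. In ER footprints the share was 8.39% and 5.71% untreated, 14.1% at 0.5 h, 21.7% and 16.6% at 1 h, 31.6% and 24.1% at 2 h, and 39.6% and 33.4% at 4 h. In cytosol footprints it was 10.1% and 3.90% untreated, 10.4% and 9.64% at 0.5 h, 20.1% and 13.2% at 1 h, 26.5% and 25.2% at 2 h, and 34.8% and 29.7% at 4 h. Within each fraction and replicate the share was higher at each later time. The exact 95% binomial interval was 32.4% to 47.1% for the ER library of replicate 1 at 4 h and 7.87% to 8.95% for its untreated library. Intervals cover counting error only. The log2 ratio of Eif4a2 to Eif4a1 was higher with thapsigargin by 2.15 in the ER and 1.86 in the cytosol, over all times, and 7 of 7 and 7 of 8 thapsigargin libraries were above every untreated one.

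The genes were chosen with earlier results of these data known, and this choice is not known to have used the same share in mRNA. In the cytosol it was 19.8% and 3.99% untreated, 34.4% and 17.7% at 0.5 h, 36.9% and 16.5% at 1 h, 51.5% and 22.9% at 2 h, and 46.4% and 37.4% at 4 h. The untreated library of replicate 2 had 1 read of Eif4a2, and its interval ran from 0.101% to 20.1%. In each replicate every thapsigargin library was above the untreated one. The log2 ratio was higher by 2.20 with thapsigargin, with 6 of 8 libraries above both untreated ones. An exact two-sided permutation test over the 45 arrangements gave p = 0.0667, and permuting within replicates gave p = 0.04, the smallest that its 25 arrangements can give. The comparison of this pair was set for both assays when the genes were chosen. Both versions also treat libraries of all thapsigargin times as replicates of 1 condition. Their p-values are therefore a description only. Without the untreated library of replicate 2 the difference was 0.91.

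In ER mRNA of replicate 1 the share was 36.7%, 41.3%, 48.1%, 63.6% and 70.3% in order of time. Replicate 2 gave 43.7% at 1 h and 40.2% at 2 h and no value at the other times. With 1 untreated library no test was possible, and the difference was 0.87 on the log2 scale. Set beside each other, the mRNA share of Eif4a2 was above the footprint share in all libraries of the ER at the same time and replicate, at 70.3% of mRNA and 39.6% of footprints in replicate 1 at 4 h. In the cytosol it was above in 9 of 10 pairs of libraries, level in 1 of these at 3.99% and 3.90% in untreated replicate 2, and below in replicate 2 at 2 h, at 22.9% of mRNA and 25.2% of footprints. The 2 proteins are closely alike, and how reads that match both genes were assigned is not given in the sources used here. Their values are uncertain to that extent.

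**Figure D5:**
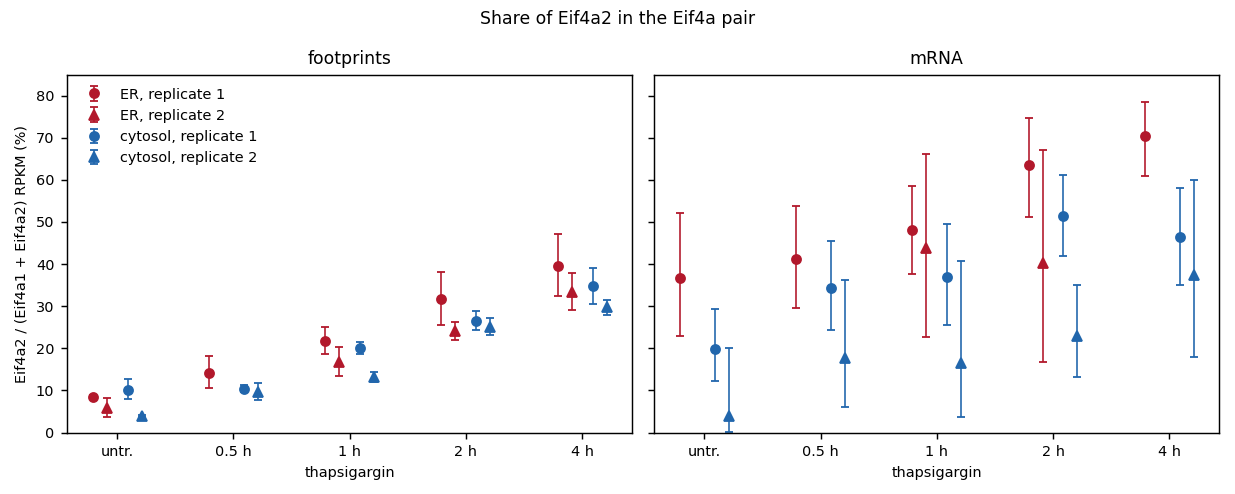
Share of Eif4a2 in the summed RPKM of Eif4a1 and Eif4a2, in percent, for footprints on the left and mRNA on the right, by time of thapsigargin. Points are libraries (red for ER, blue for cytosol; circles for replicate 1, triangles for replicate 2), and bars are exact 95% binomial intervals from recovered reads. Footprint shares go from 3.90% to 10.1% untreated up to 29.7% to 39.6% at 4 h, and mRNA intervals are wide.

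Footprints relative to mRNA were compared in untreated cells, where each library was centred on its median gene. Eif4a1 had more footprints per mRNA than the median gene in the ER, and it was the 1 member of 7 to pass. Its log2 ratio was 2.14 ± 0.70 (SE, n = 2 per assay, limma adjusted p = 0.0402), from 411 and 450.0 RPKM of footprints and 68.6 and 17.4 RPKM of mRNA. All genes tested had a median of -0.82 in this fit, 24.2% of them were called, 58 higher and 465 lower, and on the deposited scale 333 were higher and 106 lower. Eif4a1 also passed on that scale. The call was lost without ER footprint replicate 1 or 2, or without mRNA replicate 2 (2.19, 2.09 and 1.57; limma adjusted p = 0.146, 0.15 and 0.198).

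In the cytosol 0 of 9 members passed (limma, 1 at an unadjusted p under 0.05), and 7.08% of genes were called, 54 higher and 138 lower, with a median of -0.27. Eif4a1 had the highest value there too, at 1.64 ± 0.60 (limma adjusted p = 0.0996), and it passed on the deposited scale at 2.63 (limma adjusted p = 0.00733), where 388 genes were higher and 43 lower. The other members ranged from -1.46 for Eif4b to 0.22 for Eif4e in the ER and from -1.35 for Eif4ebp1 to 1.11 for Eif4e in the cytosol. Pabpc1, at 0.21 ± 1.35 and -0.40 ± 1.77, had the widest errors.

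With thapsigargin, the footprint change less the mRNA change was negative for Pabpc1 at all 4 times in both fractions, from -2.87 to -1.04 in the ER and from -2.35 to -0.17 in the cytosol, with standard errors of 1.90 to 2.50. For Eif4a1 it was positive throughout, from 1.12 to 1.71 in the ER at 1 to 4 h and from 1.43 to 1.72 in the cytosol. For Eif4a2 in the cytosol it was 0.59, 1.23, 1.54 and 1.75 ± 1.06. Over all genes the median of this quantity was 0.24, 0.81, 0.67 and 0.52 for ER libraries, while for the cytosol it was 0.09, 0.12, 0.11 and 0.08. These values use the footprint contrast that was known when the genes were chosen and are a description.

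Other genes of the cap and poly(A) tail pathway, a list of 35, had 19, 15, 13 and 15 genes tested in ER footprints at 0.5, 1, 2 and 4 h. This list and the next were chosen with footprint results of these libraries known, so their footprint values are a description. Of the tested genes 0, 0, 1 and 1 were called higher and 0 lower, against 0.49%, 10.6%, 17.5% and 27.6% of all genes called. Their medians were -0.78, -0.24, -0.25 and 0.04, against the medians of all genes above. The 1 gene at 2 and 4 h was Gigyf2, which forms a repressor complex with the cap-binding Eif4e2. It was at 11.5 and 9.43 RPKM untreated and 39.3 and 41.5 RPKM at 4 h, a difference of 1.86 ± 0.43. Eif1, Rptor and Eif5a followed at 0.99, 0.93 and 0.42, and the lowest were Larp1, Cyfip1, Eif1a and Eif5b at -0.50, -0.45, -0.33 and -0.25. In cytosol footprints 28, 30, 21 and 22 were tested. At 2 h 1 was called higher (Gigyf2) and 3 lower (Larp4, Pabpn1 and Paip1), genes picked out once their values were known, and 0 were called at the other times, against 3.45%, 1.43%, 9.45% and 7.91% of all genes at the 4 times. The medians were -0.43, -0.60, -0.997 and -1.09. At 4 h Gigyf2 was at 1.498 and Larp1, Cyfip1, Paip1 and Ncbp1, which bind TOP mRNAs, eIF4E, Pabpc1 and the nuclear cap, were at -1.78, -1.63, -1.51 and -1.38.

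Pabpc1 was also set beside 26 other TOP mRNAs, which code mostly for ribosomal proteins and elongation factors. In ER footprints 0, 5, 6 and 2 of 26 were called lower at 0.5, 1, 2 and 4 h and 1 higher at 4 h, beside the same 0.49%, 10.6%, 17.5% and 27.6% of all genes. The medians of the list were -0.75, -0.83, -0.31 and -0.26. Also picked out in this way, the 5 at 1 h were Eef2, Rps18, Eef1b2, Rpl13a and Tpt1, and at 2 h Gnb2l1 joined them. Eef1b2, a subunit of elongation factor 1, was at 462 and 610.3 RPKM untreated and 118 and 89.8 RPKM at 4 h, a difference of -2.36 ± 0.43. At 4 h Eef2, the translocation factor of elongation, was at -1.17 ± 0.41, and the ribosomal protein gene Rpl3 was at 1.36 ± 0.40. In cytosol footprints 0, 0, 2 and 1 of 26 were called lower and 0 higher, beside 3.45%, 1.43%, 9.45% and 7.91% of all genes, with medians of -0.59, -0.37, -0.86 and -0.68. The 2 at 2 h were Eef2 and Rpl5. Rpl5 was at 848 and 915 RPKM untreated and 289 and 292 RPKM at 4 h, a difference of -1.60 ± 0.42. Nothing is read from these counts. In mRNA 0 of these 26 and 0 of the 35 pathway genes passed at any time in either fraction by limma without the block.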

How the data were processed

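The authors deposited 1 table of RPKM values per gene and library. Per the submitters' processing notes, Bowtie and the human build hg19 are named although the genes are mouse genes. The annotation and the handling of reads that match several genes are not given in the sources used here. The unit was taken from the values: in 13206 genes, RPKM were whole multiples of what 1 read is worth, within a tolerance of 2e-05, which gave recovered reads. Recovered reads were used for depth and intervals. They also show that the deposited values carry a weight per fraction, which no label describes. Libraries list genes from 4 reads, or from 1 read in mRNA replicate 2.

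Changes were fitted with limma 3.58.1 in R 4.3.3 on log2(RPKM + 1), a scale that understates changes of low genes. The filter kept genes whose mean in a fit's libraries reached 1 RPKM, blanks were treated as missing, and a gene was tested where every library of the compared groups listed it. Benjamini-Hochberg adjustment ran over all genes tested, with a threshold of 0.05. Footprints per mRNA were fitted after median centring. The Eif4a2 to Eif4a1 ratio in mRNA was tested with an exact permutation test in scipy 1.17.1. The fits were run on simulated data with the same spread for every gene and no gap between replicates. That does not show how they perform on these libraries.

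Members and lists were chosen with earlier results of these data known. All 10 members are named, and of the lists up to 4 genes with the highest and 4 with the lowest footprint change at 4 h per fraction. For likeness, the 5 genes with the highest r and a mean of at least 10 RPKM were taken, of which 1 is not reported here.

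Replicate numbers come from the labels. Deviations of same-numbered samples from their group means correlated over 0.1 in every pair for ER footprints (6 pairs, 0.182 to 0.379), ER mRNA (10 pairs, 0.349 to 0.697), cytosol mRNA (10 pairs, 0.613 to 0.744) and mRNA of both fractions (45 pairs, 0.349 to 0.744), so blocked fits are given there. Alternatives changed the pseudocount, filter, scaling and block and left out each library; 3 more, without the fraction weight, without both cytosol libraries that stood apart, and blocked ER mRNA without the library of few reads at 0.5 h, were chosen after seeing the data.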

Additional observations from a re-analysis of the deposited data

Results flagged for a closer look

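Footprint changes of 3 kinds went opposite ways in the fractions, with every thapsigargin library of one fraction above both untreated libraries and every one of the other below. For Eif4g2, the ER change less the cytosol change was -1.16 on the log2 scale at 0.5 h and -1.004 at 1 h. The cytosol change of Eif4g2 turned to -0.0403 and -0.0335 with every library scaled to the same sum, and without both libraries that stood apart it was 0.11 and 0.15. For Eif4ebp1 the difference at 2 h was 1.01, from 4 and 22 reads in the ER. Over all genes, groups did not overlap in 79.4% (1 thapsigargin library) of ER and 50.7% of cytosol values at 0.5 h, 60.3% and 48.4% at 1 h, and 62.3% and 61.2% at 2 h. These genes were chosen with footprint results known, and the differences were not tested.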

How the results depend on the processing

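Depth limits these results most in mRNA, where members had 1 to 237 reads per library, and in the ER footprint library at 4 h, replicate 1. Member calls in ER footprints were 12 and lay between 5 and 11 when 1 library was left out, with 5 and 6 without untreated replicate 1 or 2 and 7 without replicate 1 at 4 h. In cytosol footprints they were 2, and 0 to 4 with 1 library left out, with 0 without untreated replicate 2, 4 without untreated replicate 1, and 1 without any single library at 2 or 4 h. Untreated ER against cytosol footprints had 3 members called, 6 with a filter of 10 RPKM, 1 with median centring, 1 with equal sums, 0 without the fraction weight and 0 to 1 with 1 library left out. Footprints per mRNA in the ER had 1 member called, 0 with a filter of 10 RPKM, 2 with equal sums and 0 to 2 with 1 library left out. In the cytosol the count of 0 became 1 with the deposited scaling, 3 with equal sums and 1 without the fraction weight. The shares of all genes called are not given for each of these alternatives, so nothing is read from the counts of members. Changes of footprints per mRNA past 1 in size numbered 16 of 22 member values in the ER and 16 of 32 in the cytosol. With 1 library left out they numbered 11 to 19 in the ER and 14 to 20 in the cytosol. The share of all genes past 1 in size is not given, so nothing is read from these counts either. With 1 library left out, the change with thapsigargin in the log2 ratio of Eif4a2 to Eif4a1 varied. It ran from 0.91 to 3.48 in cytosol mRNA and from 1.12 to 2.59 in cytosol footprints.

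Of the members' footprint changes, 6 of 35 in the ER and 19 of 37 in the cytosol changed sign under at least 1 alternative. Those larger than the spread between replicates are given first. With median centring, Eif4b in the ER at 0.5 h was 0.0172 and Eif4g2 in the ER at 4 h -0.0026. With equal sums Eif4g2 in the ER at 4 h was -0.15, and in the cytosol Eif4e was -0.14 at 0.5 h and -0.0314 at 2 h, Eif4b -0.26, -0.23 and -0.11 at 0.5, 1 and 4 h, and Eif4g2 -0.0403 and -0.0335 at 0.5 and 1 h. Without the fraction weight, Eif4b was 0.29 in the ER and -0.0291 in the cytosol at 0.5 h. With 1 library left out, Eif4ebp1 in the ER at 1 h ran from -0.0362 to 0.93, and in the cytosol at 2 h Eif4e ran from -0.0695 to 1.04 and Eif4a3 from -0.49 to 0.078. Among the smaller ones in the cytosol, Pabpc1 at 1 h turned to 1.005 without replicate 2. Without 1 library Eif4e at 1 h reached -0.33, Eif4g1 at 1 h -0.32, and Eif4ebp2 at 0.5 h 0.70. With equal sums Eif4b at 2 h was -0.34. The cause was not tested.

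With the replicate number as a block, member calls were 16 in ER footprints, 4 in cytosol footprints and 3 in cytosol mRNA. Those in cytosol mRNA were at 4 h, when 24.6% of all genes were called. Member calls were 6 for untreated ER against cytosol footprints and 1 for footprints per mRNA in the cytosol. The shares of all genes called in the blocked fits with footprints are not given here, so nothing is read from those counts. The change of 2.20 in the log2 ratio of Eif4a2 to Eif4a1 in cytosol mRNA had p = 0.04 in the exact permutation test within replicates. That is the smallest p that its 25 arrangements can give. Over all 45 arrangements the exact permutation test gave p = 0.0667. Both p-values are a description only, as they treat all thapsigargin times as 1 condition. The untreated library of replicate 2 had 1 read of Eif4a2, and without it the difference was 0.91. The numbers did not pair cytosol footprints (correlations -0.193 to 0.625), footprints of both fractions, or footprints and mRNA together in the ER (lowest 0.0096) or the cytosol. The block moved no other count of member calls.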
